A study of Homo sapiens with 6 samples.

Results

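A set of 10 genes of the interleukin-1 family were followed through an RNA-seq series of the pancreatic cancer cell lines CFPAC and KP3. They were taken by gene name from the expression table and make up 10 of its 33097 gene records. The set holds the agonists IL1A, IL1B, IL18, IL33 and IL36G, the antagonists IL1RN and IL18BP, the receptor IL1R1, the decoy receptor IL1R2 and the shared co-receptor IL1RAP. Each line had been given NEK7 siRNA, NEK6 siRNA or control siRNA, and each of these 6 groups is a single library. The control libraries are titled as control siRNA, while their genotype and treatment tags read WT, and they were taken as control siRNA. Both established lines carry no other stated allele or agent, and siRNA sequences, doses and times after transfection were not given in the sources used here. The series concerns NEK7, a mitotic kinase that also binds the inflammasome sensor NLRP3, and NEK6 is its closest relative. RNA was selected with oligo(dT) beads from 5 ug of total RNA per library.

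Interleukin-1 alpha and beta bind the receptor IL1R1, which then recruits IL1RAP and signals through MYD88 and IRAK kinases to NF-kB and MAP kinases. IL1RN fills IL1R1 without recruiting IL1RAP, IL1R2 binds ligand without signalling, and IL18BP neutralises interleukin-18 outside the cell. IL1B and IL18 are made as inactive precursors that caspase-1, the protease of the inflammasome, cuts before release, so mRNA levels do not measure the mature cytokines. In pancreatic tumours, interleukin-1 from cancer cells is known for turning nearby fibroblasts towards an inflammatory state.

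Promoter windows of 3 members are shown because they belong to the agonists IL1A and IL1B, whose levels differed most between the lines, and to the co-receptor IL1RAP, which stood apart in CFPAC with NEK6 siRNA. The sequences are RefSeq windows of build GRCh38.p14, from 250 bases before to 50 bases after a transcription start, and 9 of the 10 members had at least 1 window. The IL1A window shown is chr2:112784444-112784743 on the minus strand, the IL1B window chr2:112836730-112837029 on the minus strand and the IL1RAP window chr3:190513835-190514134 on the plus strand. Each is printed 5′ to 3′ on the strand of its gene, and capitals mark the matches to 4 motifs searched on both strands, with overlapping matches counted.
IL1A: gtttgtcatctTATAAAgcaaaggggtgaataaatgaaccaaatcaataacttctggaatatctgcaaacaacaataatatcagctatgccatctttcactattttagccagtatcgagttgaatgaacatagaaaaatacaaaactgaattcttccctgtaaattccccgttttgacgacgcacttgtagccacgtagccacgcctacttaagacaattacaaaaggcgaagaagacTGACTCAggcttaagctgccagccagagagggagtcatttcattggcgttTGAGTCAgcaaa
IL1B: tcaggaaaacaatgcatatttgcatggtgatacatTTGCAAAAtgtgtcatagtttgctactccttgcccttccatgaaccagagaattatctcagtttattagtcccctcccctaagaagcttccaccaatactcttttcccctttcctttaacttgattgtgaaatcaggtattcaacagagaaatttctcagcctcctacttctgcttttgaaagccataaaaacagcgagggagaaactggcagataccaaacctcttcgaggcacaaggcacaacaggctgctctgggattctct
IL1RAP: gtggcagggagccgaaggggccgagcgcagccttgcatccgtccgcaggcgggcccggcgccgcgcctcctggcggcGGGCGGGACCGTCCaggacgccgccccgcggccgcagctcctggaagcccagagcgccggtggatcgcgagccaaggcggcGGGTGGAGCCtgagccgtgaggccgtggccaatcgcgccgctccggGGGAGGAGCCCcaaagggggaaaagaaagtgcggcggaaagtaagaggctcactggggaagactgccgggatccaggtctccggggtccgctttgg
The AP-1-type motif TGANTCA occurred in the IL1A window with first bases at -12 and 39 relative to the start site, and 7.71% of 35116 RefSeq promoter windows of this length hold it. The same IL1A window also held TATAAA at -239, a word found in 11.5% of all windows. Another IL1A window, chr2:112784351-112784650, belongs to a different start site. It held the AP-1-type matches at -105 and -55 and no TATAAA. The IL1B window held the C/EBP-type motif TTGCNNAA at -215, which 10.5% of windows hold. The NF-kB-type motif GGGNNNNNCC occurred 5 times in the IL1RAP window, with matches at -173 and -169 and at -46 and -45 overlapping each other, against 58.7% of all windows with at least 1 match. Base composition also differed, with 39.7% GC in IL1A, 42.3% in IL1B and 73.7% in IL1RAP, against a median of 58.7% over all windows. CG dinucleotides numbered 8 in IL1A, 2 in IL1B and 36 in IL1RAP, where the median window had 14. These matches describe letters in the windows, and binding was not measured.

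Library totals ran from 59478910 to 66067379 counts, so a limit of 3 counts for a gene at 0 stands at 0.0454 to 0.0504 CPM (counts scaled to library size), for counting error only. The targeted genes matched the labels: NEK7 was at 16.2% of control in CFPAC and 39.5% in KP3 after NEK7 siRNA, and NEK6 was at 26.9% and 32.8% after NEK6 siRNA. In all, 7 of 8 epithelial markers had at least 1 FPKM in every CFPAC and every KP3 library, with summed levels of 602 to 720 FPKM in CFPAC and 1337 to 1469 FPKM in KP3. PTPRC, the pan-leukocyte marker, was at most 0.042 FPKM in either line, and 4 endothelial markers summed to at most 0.221 FPKM. Some markers of other cells moved with the line. CD14 had 5.26 to 6.30 FPKM in CFPAC and 0.0688 to 0.180 FPKM in KP3, while the 8 leukocyte markers together summed to 56.0 to 85.2 FPKM in CFPAC and 70.0 to 78.2 FPKM in KP3, most of it CD68. The 6 fibroblast markers summed to 109 to 160 FPKM in CFPAC and 5.55 to 6.34 FPKM in KP3, most of the CFPAC sum being LUM. The collagen gene COL1A1 had 1.97 to 3.19 FPKM in CFPAC and 2.22 to 2.56 FPKM in KP3. Mitochondrial transcripts took 15.2 to 17.9% of counts in CFPAC and 11.4 to 13.6% in KP3. The part of these differences in the results below was not tested, and fewer cells of a type and less RNA per cell cannot be told apart in bulk RNA.

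More of the 10 members reached 1 FPKM in CFPAC than in KP3, and their summed counts were higher in CFPAC. Of all genes tested, 31.2% had all CFPAC libraries above all KP3 libraries. The share of all genes reaching 1 FPKM in each line was not counted. The agonists IL1A and IL1B were among the most abundant members in CFPAC and near or at 0 in KP3, whereas IL18 was abundant in both lines. In all, 7 members reached 1 FPKM in every CFPAC library and 3 members, IL18, IL18BP and IL1RAP, did so in every KP3 library. FPKM scales fragments to transcript length and library size, so it allows genes to be set beside each other. The 10 members together took 259 CPM after NEK7 siRNA, 389 CPM after NEK6 siRNA and 276 CPM after control siRNA in CFPAC. In KP3 the corresponding sums were 62.7, 66.7 and 60.1 CPM. The lines did not overlap in this sum, and the CFPAC library with NEK6 siRNA stood above the other CFPAC libraries.

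**Figure D1:**
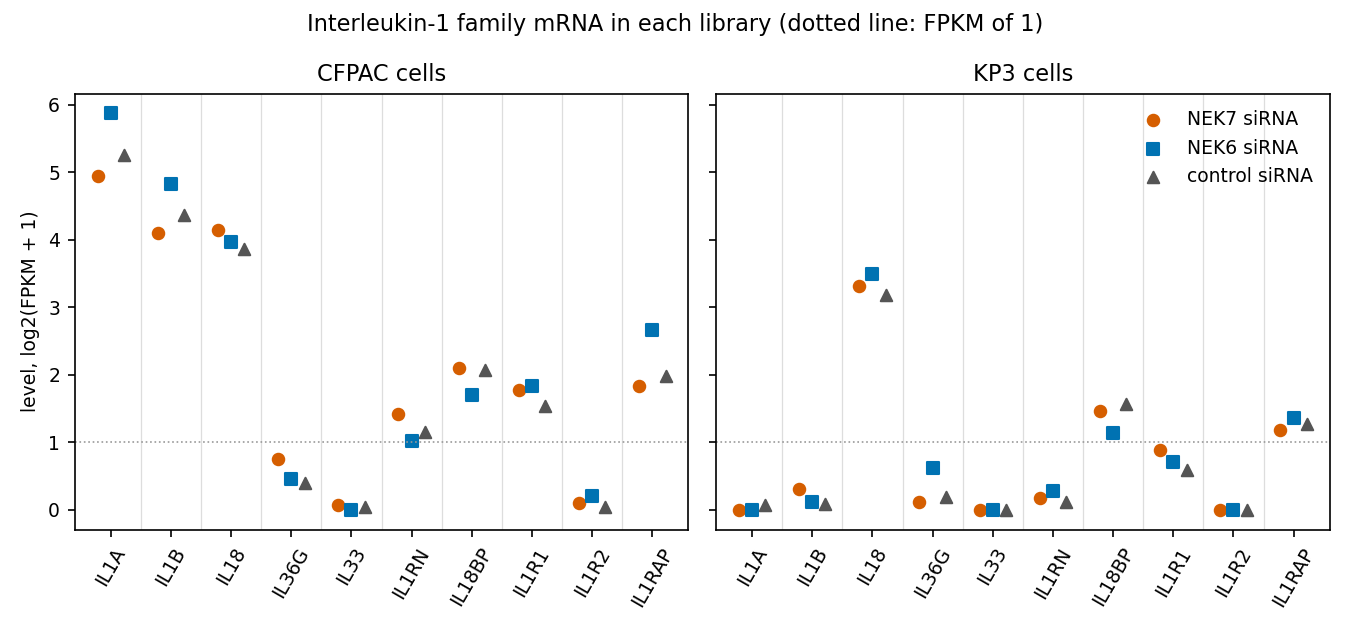
Levels of the 10 members in each of the 6 libraries, as log2(FPKM + 1) by gene, with CFPAC on the left and KP3 on the right; circles, squares and triangles are the libraries with NEK7, NEK6 and control siRNA, and the dotted line marks 1 FPKM. IL1A and IL1B lie above 16 FPKM in every CFPAC library and below 0.24 FPKM in every KP3 library, while IL18 lies between 8.11 and 16.7 FPKM throughout.

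Within CFPAC the order of FPKM levels was IL1A, then IL1B and IL18, then IL1RAP, IL18BP and IL1R1, then IL1RN, IL36G, and last IL1R2 and IL33. IL1B and IL18 overlapped over the 3 libraries, as did IL1RAP, IL18BP and IL1R1 with their neighbours, and so did IL1R2 and IL33. In KP3 IL18 stood first, followed by IL18BP and IL1RAP, whose ranges overlapped. IL1R1, IL36G, IL1RN and IL1B came next with overlapping neighbours, and IL1A, IL1R2 and IL33 were last.

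Of the agonists, IL1A had 29.7 FPKM with NEK7 siRNA, 57.5 FPKM with NEK6 siRNA and 37.2 FPKM with control siRNA in CFPAC, against 0, 0 and 0.0483 FPKM in the same order in KP3. These values came from 18496 counts summed over the CFPAC libraries and 8 counts over the KP3 libraries. All 3 CFPAC libraries were high, every KP3 library was at or near 0, and the lines did not overlap. IL1A (ENSG00000115008, chromosome 2, 112773925 to 112784493, minus strand) averaged 41.5 ± 14.4 FPKM in CFPAC and 0.0161 ± 0.0279 FPKM in KP3 (SD, n = 3 libraries each, over the siRNA conditions). The ratio of depth-scaled counts was 2454 with a 95% counting interval of 1245 to 5686. In edgeR's quasi-likelihood test IL1A had a fitted log2 fold change of 11.18 with an SE of 0.70 and a Benjamini-Hochberg adjusted p of 0.0003815. Here and below, the SE of an edgeR value is its absolute log2 fold change over the square root of the F statistic. It is not an SE estimated by the model, and it is least secure where counts are at 0. DESeq2 gave IL1A a log2 fold change of 13.39 with an SE of 1.99. The size of the edgeR fold change depends on how counts of 0 are handled. Without the CFPAC control library it was 15.70, and without the KP3 control library, which holds all 8 KP3 counts, it was 15.66.

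IL1B, the agonist processed by caspase-1, had 16.2 FPKM with NEK7 siRNA, 27.2 FPKM with NEK6 siRNA and 19.7 FPKM with control siRNA in CFPAC. In KP3 it had 0.235 FPKM with NEK7 siRNA, 0.0867 FPKM with NEK6 siRNA and 0.0573 FPKM with control siRNA. The lines were again fully apart, with 14007 summed counts in CFPAC and 90 in KP3. IL1B (ENSG00000125538, chromosome 2, 112829751 to 112836816, minus strand) averaged 21.0 ± 5.63 FPKM in CFPAC and 0.126 ± 0.0951 FPKM in KP3 (SD, n = 3 libraries each). The edgeR log2 fold change was 7.45 (SE 0.57, adjusted p = 0.0006247), and it was 8.34 without either NEK7 siRNA library. The ratio of both agonists varied little in CFPAC, where IL1A had 1.83 times the FPKM of IL1B with NEK7 siRNA, 2.11 times with NEK6 siRNA and 1.89 times with control siRNA.

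IL18, the other caspase-1 substrate, had 16.7, 14.7 and 13.6 FPKM in CFPAC with NEK7, NEK6 and control siRNA, against 8.91, 10.2 and 8.11 FPKM in KP3. All CFPAC libraries were above all KP3 libraries, by a much smaller margin than for IL1A and IL1B. IL18 (ENSG00000150782, chromosome 11, 112143253 to 112164093, minus strand) averaged 14.998 ± 1.61 FPKM in CFPAC and 9.07 ± 1.05 FPKM in KP3 (SD, n = 3 libraries each), and edgeR gave a log2 fold change of 0.77 (SE 0.12, adjusted p = 0.005415). A gene annotated on the opposite strand spans IL18, but it was listed at no more than 0.107 FPKM.

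IL36G, an epithelial agonist that signals with IL1RAP, had 0.692, 0.378 and 0.316 FPKM in CFPAC with NEK7, NEK6 and control siRNA, against 0.0867, 0.530 and 0.136 FPKM in KP3. The lines overlapped through the KP3 library with NEK6 siRNA, and the gene did not pass the filter for testing, which asked for 1 FPKM in at least 1 library. IL33, an alarmin stored in the nucleus, had 12, 0 and 9 counts in CFPAC with NEK7, NEK6 and control siRNA, against 0 counts in every KP3 library. Its level over the CFPAC libraries was at least 2.48-fold higher than a floor of 9 counts over the 3 KP3 libraries, but the lines overlapped at 0.

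Of the antagonists, IL1RN had 1.68, 1.03 and 1.23 FPKM in CFPAC with NEK7, NEK6 and control siRNA, against 0.131, 0.209 and 0.0809 FPKM in KP3. The lines did not overlap, and the order of the siRNA conditions differed between them. IL1RN (ENSG00000136689, chromosome 2, 113107214 to 113134016, plus strand) averaged 1.32 ± 0.333 FPKM in CFPAC and 0.140 ± 0.0647 FPKM in KP3 (SD, n = 3 libraries each), and edgeR gave a log2 fold change of 3.29 (SE 0.46, adjusted p = 0.003395). In CFPAC, IL1A, IL1B and IL18 exceeded IL1RN in every library, while IL36G and IL33 lay below it. IL1A had 17.6 times the FPKM of IL1RN with NEK7 siRNA, 55.8 times with NEK6 siRNA and 30.2 times with control siRNA. In KP3 the ratio of IL1B to IL1RN was 1.80 with NEK7 siRNA, 0.414 with NEK6 siRNA and 0.708 with control siRNA, on 14 to 57 counts of IL1B.

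IL18BP had 3.29, 2.26 and 3.18 FPKM in CFPAC with NEK7, NEK6 and control siRNA, against 1.75, 1.19 and 1.98 FPKM in KP3. In each line the library with NEK6 siRNA was the lowest, and the lines did not overlap. IL18BP (ENSG00000137496, chromosome 11, 71998613 to 72005715, plus strand) averaged 2.91 ± 0.564 FPKM in CFPAC and 1.64 ± 0.404 FPKM in KP3 (SD, n = 3 libraries each), with an edgeR log2 fold change of 0.88 (SE 0.16, adjusted p = 0.007567). It overlaps NUMA1, a gene of the mitotic spindle on the opposite strand, by 2852 bases, and a use of strand in counting was not given in the sources used here, so without it reads of this stretch cannot be told apart. NUMA1 had 15.97, 9.35 and 9.99 FPKM in CFPAC with NEK7, NEK6 and control siRNA, against 8.60, 8.43 and 10.6 FPKM in KP3. IL18 exceeded its binding protein in every library: the ratio of FPKM was 5.09 with NEK7 siRNA, 6.49 with NEK6 siRNA and 4.26 with control siRNA in CFPAC, against 5.10, 8.57 and 4.11 in KP3.

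Of the receptors, IL1R1 had 2.42, 2.58 and 1.91 FPKM in CFPAC with NEK7, NEK6 and control siRNA, against 0.852, 0.628 and 0.499 FPKM in KP3. The lines did not overlap, and the control library was the lowest in each. IL1R1 (ENSG00000115594, chromosome 2, 102064544 to 102179866, plus strand) averaged 2.31 ± 0.348 FPKM in CFPAC and 0.660 ± 0.179 FPKM in KP3 (SD, n = 3 libraries each), and edgeR gave a log2 fold change of 1.87 (SE 0.18, adjusted p = 0.001216).

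The co-receptor IL1RAP had 2.58, 5.36 and 2.96 FPKM in CFPAC with NEK7, NEK6 and control siRNA, against 1.27, 1.58 and 1.42 FPKM in KP3. The CFPAC library with NEK6 siRNA stood apart from the rest, and the lines did not overlap. IL1RAP (ENSG00000196083, chromosome 3, 190514051 to 190657196, plus strand) averaged 3.63 ± 1.51 FPKM in CFPAC and 1.42 ± 0.155 FPKM in KP3 (SD, n = 3 libraries each), with an edgeR log2 fold change of 1.32 (SE 0.19, adjusted p = 0.003692). The decoy receptor IL1R2 had 16, 37 and 6 counts in CFPAC with NEK7, NEK6 and control siRNA, against 0 counts in every KP3 library. Its summed level was at least 6.96-fold higher in CFPAC than a floor of 9 counts over the KP3 libraries, and it was below the level for testing.

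**Figure D2:**
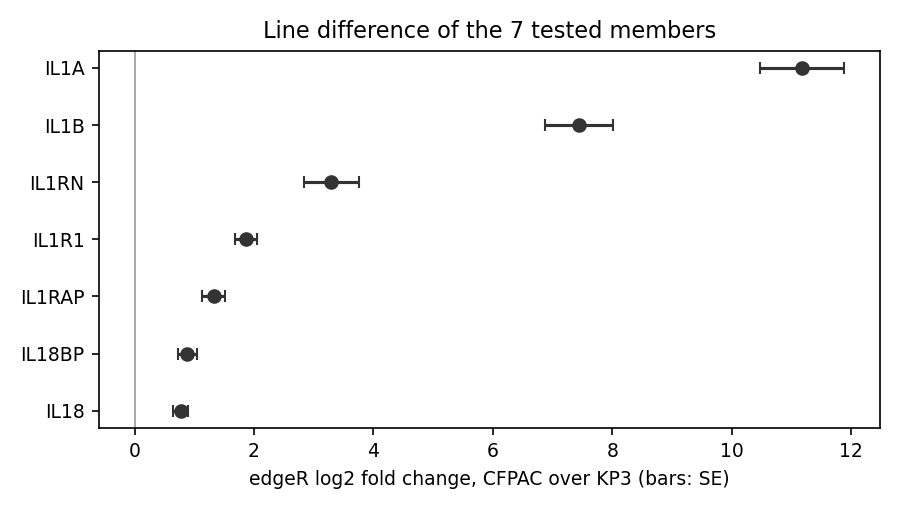
The edgeR log2 fold change of CFPAC over KP3 on the horizontal axis for each of the 7 members tested. Bars are 1 SE, derived from the F statistic of the test. IL1A and IL1B lie furthest to the right (11.18 and 7.45) and IL18 lies nearest to 0 (0.77).

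In all, 7 of the 10 members passed the filter and were called higher in CFPAC by edgeR, and 8 of the 10 had all CFPAC libraries above all KP3 libraries in FPKM. Over all 14582 genes tested, 56.4% were called, 29.3% higher and 27.1% lower in CFPAC, and 31.2% had all CFPAC libraries above all KP3 libraries. The 31.2% is over genes tested, while the 8 include IL1R2 and the 10 include IL33 and IL36G, which were not tested. IL1A, IL1B, IL1RN and IL1R1 reached 1 FPKM only in CFPAC, so they had to differ in this direction to be tested. Neither the count of 7 nor that of 8 is support of its own. IL18, IL18BP and IL1RAP reached that level in every library. Whether the libraries came from separate cultures is not stated in the labels. The p-values measure only against the spread left after line and siRNA effects. That spread may be technical, and it also holds any difference in siRNA response between the lines.

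IL1A, IL1B, IL36G and IL1RN lie in a cluster of interleukin-1 family genes on chromosome 2. From 3 protein-coding genes before IL1A to 3 after IL1RN the stretch holds 15 genes, 9 of them of the family, and IL1A start to IL1RN end spans 360.1 kb. These neighbours were chosen by position after the members' values had been seen. The other family genes of the cluster were low in both lines: IL37, the only one of them tested, had 0.178, 0.305 and 1.07 FPKM in CFPAC with NEK7, NEK6 and control siRNA, against 0.0575, 0.272 and 0 FPKM in KP3. On the side of IL1A, CKAP2L, a spindle gene, had an edgeR log2 fold change of 1.47 (adjusted p = 0.001275) and the phosphate transporter SLC20A1 one of 0.81 (adjusted p = 0.01064). Beyond IL1RN, PSD4 had a log2 fold change of 0.89 (adjusted p = 0.02902), while the transcription factor PAX8 (0.17, adjusted p = 0.4254) and CBWD2 (0.14, adjusted p = 0.3306) did not pass. Over all genes tested, edgeR called 29.3% higher and 27.1% lower in CFPAC. A difference of the stretch as a whole was not tested.

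**Figure D3:**
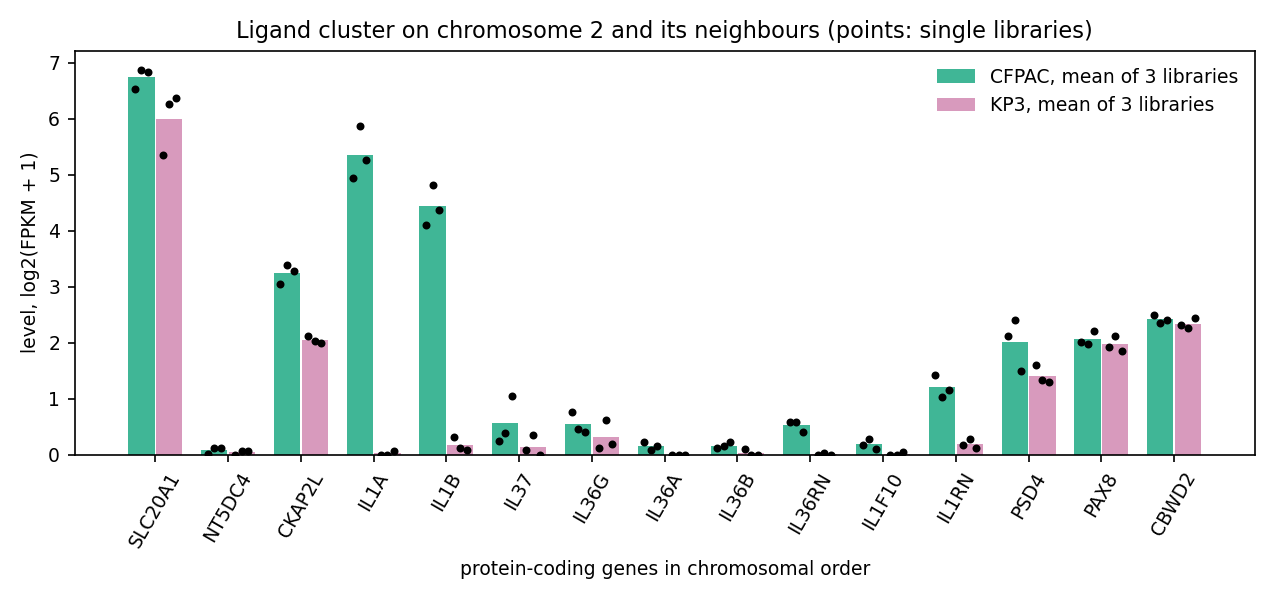
Levels as log2(FPKM + 1) of the 15 protein-coding genes of the chromosome 2 stretch in chromosomal order; bars are means of 3 libraries in CFPAC (left) and KP3 (right), and points are single libraries. IL1A and IL1B are the genes of the stretch with the largest gap between lines, at 5.35 and 4.43 in CFPAC against 0.02 and 0.17 in KP3.

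The siRNA comparisons asked whether members moved with knockdown of NEK7 or NEK6. No gene passed in edgeR's quasi-likelihood test with line as a factor: 0 of 14582 genes were called for NEK7 siRNA against control (0%), for NEK6 siRNA against control (0%) and for NEK7 against NEK6 siRNA (0%). The silenced genes themselves did not pass this edgeR test. With NEK7 siRNA against control, NEK7 had a log2 fold change of -1.93 (adjusted p = 0.4922). With NEK6 siRNA against control, NEK6 had one of -1.75 (adjusted p = 0.1815). A member that did not pass is therefore not shown to be unchanged. At an unadjusted p under 0.05 there were 1372 genes (9.41%), 1073 genes (7.36%) and 1437 genes (9.85%). DESeq2 called 369, 288 and 475 genes and limma called 0 in each, and no member was among the DESeq2 calls. Comparisons that follow within a line set 1 library against 1 and carry no test. Their intervals are 95% intervals of depth-scaled count ratios that cover counting error only. Both comparisons against control share the control library of a line.

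Among the agonists in CFPAC, IL1A and IL1B stood lower with NEK7 siRNA and higher with NEK6 siRNA than with control siRNA. For IL1A the ratio to control was 0.774 (0.744 to 0.805) with NEK7 siRNA and 1.54 (1.49 to 1.60) with NEK6 siRNA. For IL1B it was 0.799 (0.764 to 0.835) with NEK7 siRNA and 1.38 (1.33 to 1.44) with NEK6 siRNA. In KP3, IL1B stood at 3.91 times control (2.18 to 7.02) with NEK7 siRNA, on 57 against 14 counts, and at 1.45 times (0.730 to 2.90) with NEK6 siRNA. IL1A had 0 counts in both KP3 knockdown libraries and 8 in the control library, too few for a ratio. With both lines in the fit, edgeR gave IL1B a log2 fold change of 0.54 (SE 0.60, adjusted p = 0.7842) for NEK7 siRNA and 0.46 (SE 0.56, adjusted p = 0.861) for NEK6 siRNA against control. The value for IL1A was -0.68 (SE 0.67, adjusted p = 0.7569) for NEK7 siRNA and 0.27 (SE 0.66, adjusted p = 0.9454) for NEK6 siRNA, but these rest on KP3 counts of 0 and 8. DESeq2 gave -3.65 for NEK7 siRNA and -2.86 for NEK6 siRNA. Without the CFPAC control library the edgeR values were -6.55 and -5.55, and without the CFPAC NEK7 library the first was -4.91.

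IL18 stood above control in all 4 knockdown libraries. Its ratio to control was 1.20 (1.14 to 1.26) in CFPAC and 1.08 (1.01 to 1.15) in KP3 with NEK7 siRNA, and 1.08 (1.03 to 1.14) in CFPAC and 1.26 (1.18 to 1.35) in KP3 with NEK6 siRNA. The edgeR log2 fold changes were 0.19 (SE 0.15, adjusted p = 0.6993) for NEK7 siRNA and 0.23 (SE 0.15, adjusted p = 0.7585) for NEK6 siRNA. Over all genes tested, 33.9% were higher in both lines with NEK7 siRNA by any amount and 27.6% with NEK6 siRNA. The share above control in all 4 knockdown libraries at once was not counted. IL36G, at 10 to 73 counts a library, had a ratio of 2.12 (1.39 to 3.22) to control in CFPAC and 0.640 (0.288 to 1.43) in KP3 with NEK7 siRNA. With NEK6 siRNA its ratio was 1.19 (0.744 to 1.901) in CFPAC and 3.79 (2.14 to 6.72) in KP3.

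Of the antagonists, neither passed in either comparison against control. IL18BP stood below control with NEK6 siRNA in both lines, at 0.712 (0.646 to 0.784) in CFPAC and 0.608 (0.535 to 0.692) in KP3, and 27.7% of all genes tested were lower in both. edgeR gave a log2 fold change of -0.60 (SE 0.19) with an unadjusted p of 0.02585 and an adjusted p of 0.6431, so the difference did not pass. With NEK7 siRNA the ratio of IL18BP to control was 1.002 (0.918 to 1.09) in CFPAC and 0.873 (0.780 to 0.976) in KP3. IL1RN stood at 1.33 (1.14 to 1.55) in CFPAC and 1.53 (0.896 to 2.60) in KP3 with NEK7 siRNA. With NEK6 siRNA it stood at 0.843 (0.712 to 0.998) in CFPAC and 2.39 (1.44 to 3.95) in KP3, the KP3 value on 49 against 22 counts. None of these passed in edgeR, where the adjusted p of IL1RN was 0.7764 for NEK7 siRNA and 0.8385 for NEK6 siRNA.

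Among the receptors, IL1R1 stood above control in every knockdown library, with the control library shared between both comparisons. Of all genes tested, 33.9% were higher in both lines with NEK7 siRNA and 27.6% with NEK6 siRNA, and the share above control in every knockdown library was not counted. The values that follow are for IL1R1. Its ratio was 1.23 (1.13 to 1.34) in CFPAC and 1.68 (1.45 to 1.95) in KP3 with NEK7 siRNA, and 1.35 (1.24 to 1.46) in CFPAC and 1.27 (1.08 to 1.49) in KP3 with NEK6 siRNA. The edgeR log2 fold change was 0.53 (SE 0.22, adjusted p = 0.5447) for NEK7 siRNA and 0.39 (SE 0.22, adjusted p = 0.7357) for NEK6 siRNA. IL1RAP stood at 0.846 (0.799 to 0.896) in CFPAC and 0.878 (0.811 to 0.951) in KP3 with NEK7 siRNA, and at 1.81 (1.72 to 1.897) in CFPAC and 1.11 (1.03 to 1.20) in KP3 with NEK6 siRNA. It was thus below control with NEK7 siRNA and above control with NEK6 siRNA in both lines, and 25.6% of all genes tested were lower in both with NEK7 siRNA and 27.6% higher in both with NEK6 siRNA. The edgeR log2 fold change of IL1RAP was -0.21 (SE 0.23, adjusted p = 0.7789) for NEK7 siRNA and 0.52 (SE 0.23, adjusted p = 0.6901) for NEK6 siRNA.

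**Figure D4:**
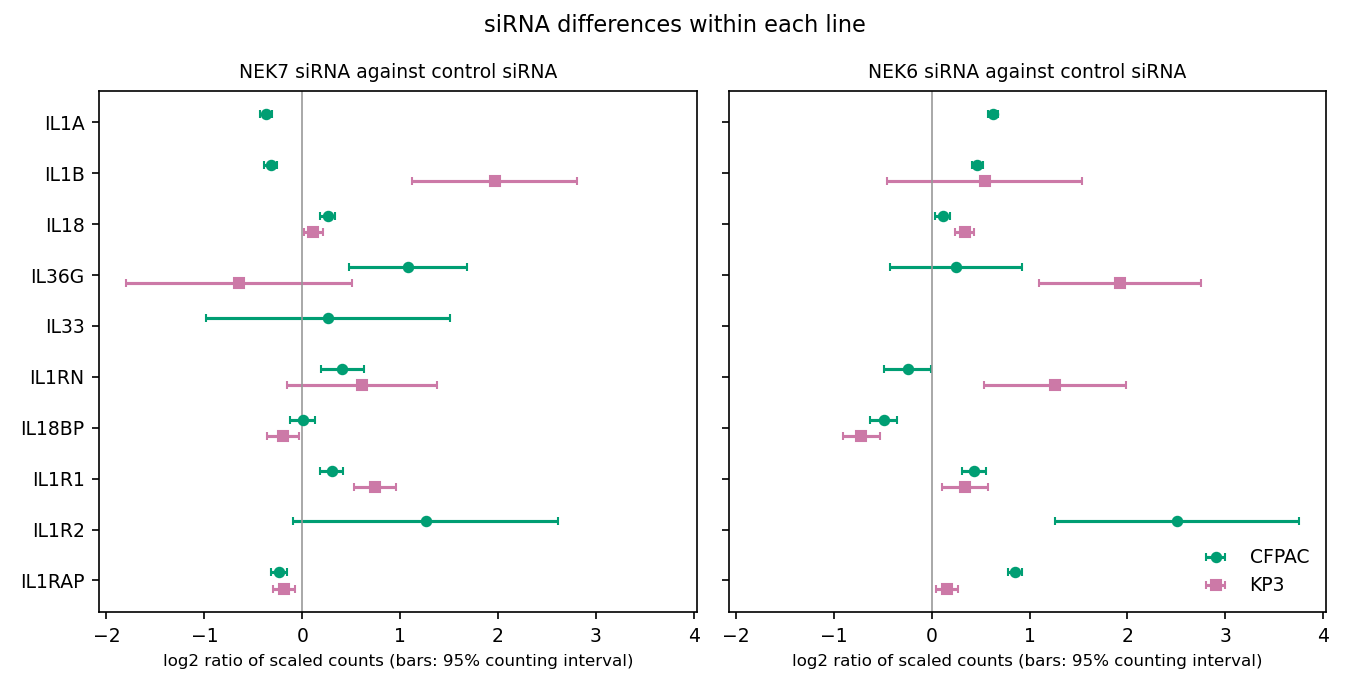
Within-line log2 ratios of depth-scaled counts for each member, NEK7 siRNA over control in the left panel and NEK6 siRNA over control in the right, with CFPAC as circles, KP3 as squares and bars for 95% counting intervals. Comparisons in which a library had 0 counts are not drawn (IL1A, IL33 and IL1R2 in KP3, and IL33 with NEK6 siRNA in CFPAC); IL1RAP lies at 0.85 with NEK6 siRNA in CFPAC and IL1B at 1.97 with NEK7 siRNA in KP3.

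NEK7 and NEK6 siRNA were also set against each other, a comparison that leaves the control library out. In CFPAC the ratio of NEK7 over NEK6 siRNA was 0.501 for IL1A, 0.579 for IL1B and 0.468 for IL1RAP. In KP3 it was 2.69 for IL1B, on 57 against 19 counts, and 0.789 for IL1RAP. IL18BP stood at 1.41 in CFPAC and 1.43 in KP3. Of all genes tested, 24.4% were lower in both lines in this comparison, as IL1RAP was, and 32.6% higher in both, as IL18BP was. edgeR gave IL1RAP a log2 fold change of -0.73 (SE 0.23, unadjusted p = 0.02392, adjusted p = 0.4401) and IL18BP one of 0.51 (SE 0.19, unadjusted p = 0.0465, adjusted p = 0.4972), so neither passed.

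On log2(FPKM + 1), which damps low genes, few members differed by 1.5-fold within a line. IL1A, IL1B, IL1RN, IL1R2 and IL33 had at most 0.235 FPKM in KP3, and IL1R2 and IL33 at most 0.158 FPKM in CFPAC. At these levels a difference of 1.5-fold is out of reach on this scale, so their absence says nothing about the siRNAs. The shares that follow are over genes that reached 1 FPKM, which IL33, IL1R2 and IL36G did not. With NEK7 siRNA against control no member did in either line, where 9.43% of all genes tested did in CFPAC and 9.7% in KP3. With NEK6 siRNA against control, IL1A (0.61) and IL1RAP (0.68) were higher in CFPAC, 2 of 10 members against 3.76% of genes tested (8.48% in either direction), and no member passed that size in KP3, against 9.29%. For NEK7 over NEK6 siRNA, IL1A (-0.93), IL1RAP (-0.83) and IL1B (-0.71) were lower in CFPAC, 3 of 10 members against 4.42% of genes tested, and none was in KP3, against 11.5% in either direction. With a pseudocount of 0.1 FPKM, which damps low genes less, more members passed this size. For NEK7 siRNA against control they were IL36G in CFPAC (0.93) and IL1B (1.09) and IL1R1 (0.67) in KP3, all higher. For NEK6 siRNA against control IL1R2 (1.02) joined IL1A and IL1RAP in CFPAC, and in KP3 IL1RN (0.77) and IL36G (1.41) were higher and IL18BP (-0.69) lower. For NEK7 over NEK6 siRNA, 2 members were higher and 4 lower in CFPAC, and 1 was higher and 1 lower in KP3. More of all genes tested also passed this size with the smaller pseudocount in the comparisons against control, as given in the closing section. They were not counted for NEK7 over NEK6 siRNA. The shares above therefore cannot be set beside the members that passed with 0.1 FPKM. These are differences between 1 library and another, with no replicate check.

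The wider pathway was read from 4 lists. They were chosen with earlier results of these data known, so their counts are no independent support. Of genes known to respond to interleukin-1, 22 of 28 were tested, and 16 were higher and 3 lower in CFPAC than in KP3 by edgeR, with a median log2 fold change of 1.32 against -0.001 over all genes tested, of which 29.3% were higher and 27.1% lower. CXCL5, ICAM1 and MMP1, 3 of the 16, reached 1 FPKM only in CFPAC, so the filter fixed their direction, and of the 18 genes that reached it in both lines 13 were higher and 3 lower. The shares of all genes that reached it in both lines were not counted. The iron-binding protein LCN2 (log2 fold change 7.49, adjusted p = 0.000666), the neutrophil chemokine CXCL5 (6.65, adjusted p = 0.0003518) and the acute-phase proteins SAA2 (5.48, adjusted p = 0.0001068) and SAA1 (4.97, adjusted p = 0.0001613) had the largest values. LCN2 had 324, 278 and 371 FPKM in CFPAC with NEK7, NEK6 and control siRNA, against 2.02, 3.36 and 0.810 FPKM in KP3. SAA1 and SAA2 are near-identical copies, so the split of their reads is uncertain. Not every gene of the list followed, and the 3 lower genes are named here after their values were seen. LIF (-1.47, adjusted p = 0.0003815), BIRC3 (-1.19, adjusted p = 0.001274) and IER3 (-0.85, adjusted p = 0.009346) were lower in CFPAC. BIRC3 is an apoptosis inhibitor induced by NF-kB.

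Of 24 genes of receptor signalling, 23 were tested, and 6 were higher and 4 lower in CFPAC, with a median log2 fold change of 0.20. All 23 reached 1 FPKM in both lines. Of all genes tested, 29.3% were higher and 27.1% lower, but these include genes that reached 1 FPKM in only 1 line. The shares over genes that reached it in both lines were not counted. The ubiquitin ligase PELI1 (3.17, adjusted p = 0.0002714), the kinase IRAK4 (1.11, adjusted p = 0.01036) and the inhibitor TOLLIP (1.02, adjusted p = 0.001966) were higher, and PELI2 (-0.997, adjusted p = 0.01121) was lower. Of 20 genes of processing and release, 14 were tested, and 3 were higher and 5 lower, with a median of -0.07. The 3 higher genes, CASP1, NLRP3 and GSDME, reached 1 FPKM only in CFPAC, so the filter fixed their direction, and of the 11 genes that reached it in both lines 0 were higher and 5 lower in edgeR. CASP1, which cuts the IL1B and IL18 precursors, had 4.45, 5.34 and 3.22 FPKM in CFPAC with NEK7, NEK6 and control siRNA, against 0, 0.175 and 0.0534 FPKM in KP3 (adjusted p = 0.005101). The inflammasome sensor NLRP3 had 0.724, 1.16 and 1.13 FPKM in CFPAC and was listed at 0 in every KP3 library (adjusted p = 0.002762). GSDME, a pore-forming gasdermin, was higher (3.47, adjusted p = 0.002597), and CAPN2, a calpain subunit, lower in CFPAC (-0.92, adjusted p = 0.001495). Of 12 other family members, 11 had a record and 2 were tested, and neither IL37 (2.33, adjusted p = 0.2641) nor the inhibitory receptor SIGIRR (0.31, adjusted p = 0.1207) passed.

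In the siRNA comparisons no gene of the 4 lists passed in edgeR. Of the 22 responsive genes tested, 7 were at least 1.5-fold higher with NEK6 siRNA than with control in CFPAC and 0 lower, where 3.76% of all genes were higher and 4.72% lower. In KP3, 5 were higher and 1 lower, against 4.87% and 4.42% of all genes. SAA1 differed by 0.64 in CFPAC and 1.10 in KP3 on log2(FPKM + 1) and SAA2 by 0.99 and 0.73, with edgeR adjusted p of 0.5241 and 0.2374. BIRC3 was the third gene past 1.5-fold in both lines, at 0.71 in CFPAC and 0.87 in KP3. With NEK7 siRNA, 1 responsive gene was higher and 0 lower in CFPAC, against 4.61% and 4.82% of all genes, and 1 was higher and 4 lower in KP3, against 4.8% and 4.9%. CXCL3 differed by 0.81 in CFPAC and 0.43 in KP3, and CXCL1 by -0.44 and -0.71, both neutrophil chemokines, with adjusted p of 0.5783 and 0.4922.

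**Figure D5:**
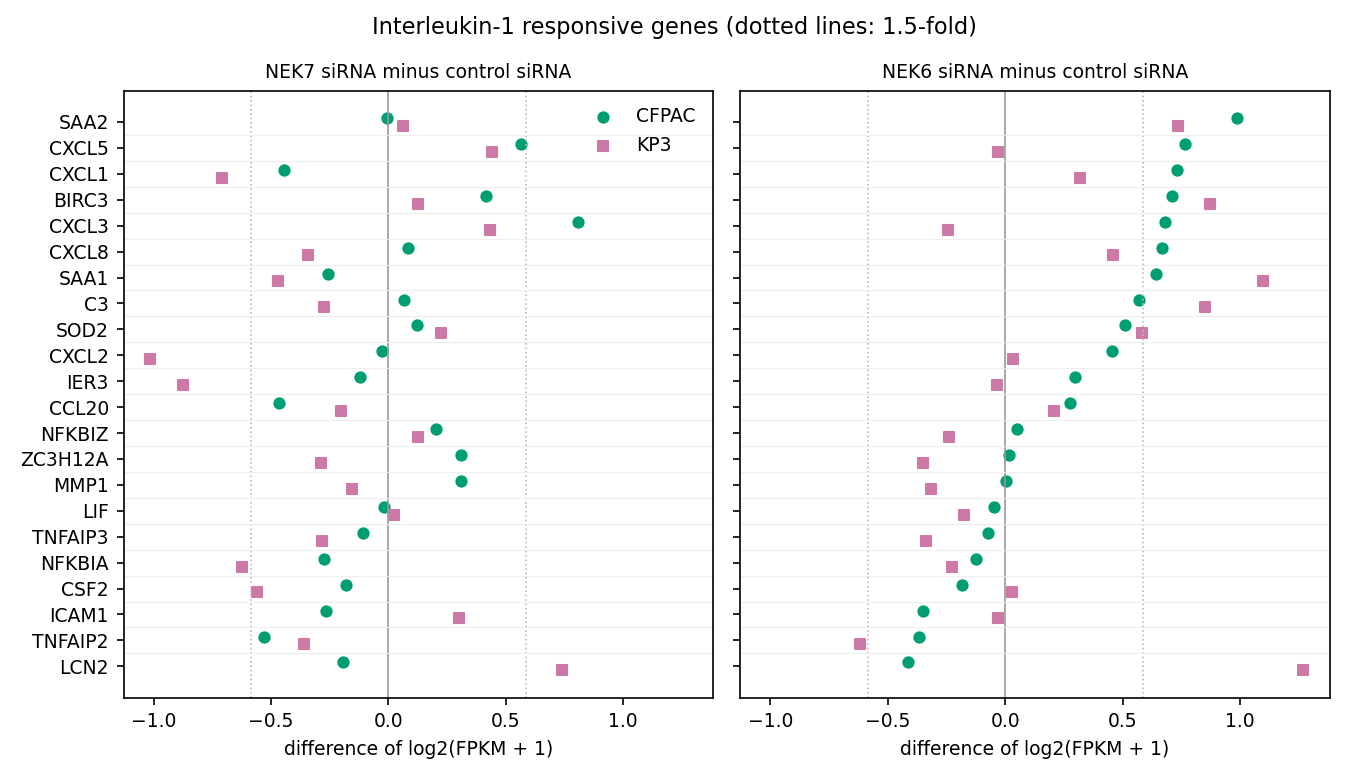
Differences of log2(FPKM + 1) between knockdown and control siRNA for the 22 interleukin-1 responsive genes tested, with CFPAC as circles and KP3 as squares; each point is 1 library minus 1 library and dotted lines mark 1.5-fold. With NEK6 siRNA, 7 genes in CFPAC and 5 in KP3 lie beyond the upper line.

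For NEK7 over NEK6 siRNA, 4 responsive genes were at least 1.5-fold lower in CFPAC and 0 higher, against 4.42% and 4.88% of all genes, and 9 were lower and 1 higher in KP3, against 5.95% and 5.53%. CXCL1 differed by -1.18 in CFPAC and -1.03 in KP3, and SAA1 by -0.90 and -1.57, with edgeR adjusted p of 0.2589 and 0.2937. Among signalling genes, MYD88, the adaptor of IL1R1, had 13.98, 15.99 and 4.14 FPKM in CFPAC with NEK7, NEK6 and control siRNA, against 6.23, 5.51 and 6.52 FPKM in KP3. The CFPAC control library was the low one, and both CFPAC comparisons share it, while the KP3 libraries lay close together. The edgeR adjusted p of MYD88 was 0.7027 for NEK7 siRNA and 0.7746 for NEK6 siRNA against control. PELI2 differed from control by 0.30 in CFPAC and 0.98 in KP3 with NEK7 siRNA (adjusted p = 0.5075), and MAP3K3 by -0.36 and -0.53 with NEK6 siRNA (adjusted p = 0.6389). PELI2 (0.36 and 0.90, adjusted p = 0.4285) and NFKB1 (0.46 and 0.33, adjusted p = 0.5189) led for NEK7 over NEK6 siRNA. Among processing genes, the calpain subunit CAPNS1 differed from control by -0.30 in CFPAC and -0.60 in KP3 with NEK7 siRNA (adjusted p = 0.5075) and by -0.32 and -0.73 with NEK6 siRNA (adjusted p = 0.5811). The inflammasome adaptor PYCARD differed by 0.15 and 0.56 with NEK7 siRNA (adjusted p = 0.596), and CASP1 by 0.59 and 0.16 with NEK6 siRNA (adjusted p = 0.7977). PYCARD (0.27 and 0.66, adjusted p = 0.5189) and S100A13, which takes part in IL1A export (-0.71 and -0.10, adjusted p = 0.5307), led for NEK7 over NEK6 siRNA. SIGIRR differed from control by -0.50 in CFPAC and -0.26 in KP3 with NEK7 siRNA (adjusted p = 0.527) and by -0.26 and -0.40 with NEK6 siRNA (adjusted p = 0.6997). IL37 differed by -0.81 and 0.08 with NEK7 siRNA (adjusted p = 0.818) and by -0.67 and 0.35 with NEK6 siRNA (adjusted p = 0.9728).

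Likeness to a member was measured as Pearson's r of log2(FPKM + 1) over the 6 libraries, among 5837 tested genes whose range was at least 1. The 6 points share the line difference and the library, so high values were common: 1547 genes had r above 0.95 with IL1A, 1569 with IL1B, 1246 with IL1R1, 1209 with IL1RN and 542 with IL18. IL18BP and IL1RAP were less tied to the line pattern, with 58 and 63 such genes. The genes most like IL1A were PPP1R14A (0.99995), DPP4-DT (0.99985) and TMEM92 (0.99984), and those most like IL1B were GNB5 (0.99981), ANXA3 (0.99967) and LMO2 (0.99966). TRIM10 (0.99964), CEP164 (0.99926) and ANKRD18EP (0.99868) were most like IL1RN. For IL18 they were SUV39H2 (0.99678), ATP8B1 (0.99574) and TOP1MT (0.99441), and for IL1R1 ZNF92 (0.99918), CSPG4 (0.99906) and BTC (0.99879). GSTK1 (0.99418), MIER2 (0.99189) and MBOAT1 (0.98926) were most like IL18BP. For IL1RAP, KDM7A (0.99408) and CIBAR1P1 (0.99226) had the highest values. Between members, IL1A and IL1B had r = 0.9993, and the lowest value was 0.5147 for IL18BP and IL1RAP.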

How the data were processed

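RNA-seq was analysed for 6 libraries, 1 for each line and siRNA. The authors deposited unnormalized counts per gene as whole numbers, and per the file headers also FPKM for the same genes, a value scaled by transcript length and depth. Per the submitters' processing notes, the tools included StringTie 1.3.4d, HISAT2 2.0.4, cutadapt 1.9 and edgeR, in roles that are not named, and a genome build was not given in the sources used here. Coordinates are those in the deposited table, and 32176 of 32211 ids shared with GENCODE 29 (99.891%) overlapped that GRCh38 annotation on the same strand. Library totals ran from 59478910 to 66067379 counts, and per-gene intervals and floors of 3 counts cover counting error only.

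Members and lists were chosen with earlier results of these data known. Genes with at least 1 FPKM in at least 1 library were tested (14582). Under R 4.3.3, edgeR 4.0.16 was fitted to the counts with TMM scaling and quasi-likelihood tests, siRNA and line being the factors, with 2 residual degrees of freedom, with Benjamini-Hochberg adjustment across every gene tested (threshold 0.05). Libraries of a line were compared on log2(FPKM + 1) and on TMM-scaled counts, with no test. The labels hold no replicate numbers. The method was also run on simulated counts with planted changes, in which every gene had the same dispersion, unlike real data. The outcome of that run is not given here. Named were all members, the targeted genes and, of each list and comparison, up to 4 called genes with the largest fold change or, where none was called, the 2 with the largest mean difference. The 3 genes with the highest r to each tested member were also named, except 1 that is not reported here. BIRC3, LIF, IER3, ICAM1, MMP1 and the chromosome 2 neighbours were added after values were seen. Alternatives were median-ratio size factors, no filter, filterByExpr, DESeq2 1.42.0, limma 3.58.1 on log2(FPKM + 1), no block, each library left out, a pseudocount of 0.1, scaled counts in place of FPKM, and the control libraries alone. Tables and plots used Python 3.11.15 with numpy 2.4.6, pandas 2.3.3, scipy 1.17.1 and matplotlib 3.10.9.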

Additional observations from a re-analysis of the deposited data

Results flagged for a closer look

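In 7 comparisons the counting intervals of a member's siRNA ratio lay on opposite sides of no change in CFPAC and KP3. Each rests on 1 library against 1, and the difference between lines was not tested. The values are the log2 ratio in CFPAC minus that in KP3. IL1B differed by -2.29 for NEK7 siRNA against control and by -2.22 for NEK7 against NEK6 siRNA, with 14 to 57 counts in KP3. IL1RN differed by -1.50 for NEK6 siRNA against control and by 1.2999 for NEK7 against NEK6 siRNA, with 22 to 49 counts in KP3. IL36G differed by 3.396, IL1R1 by -0.54 and IL18 by 0.37, all for NEK7 against NEK6 siRNA. Counting intervals leave out the variation between cultures, which these libraries do not measure. The 7 were picked from all members and siRNA comparisons, and the share of all genes tested with such intervals was not counted. Over all genes tested, 33.9% were higher and 25.6% lower in both lines for NEK7 siRNA against control. For NEK6 siRNA against control it was 27.6% and 27.7%, and for NEK7 against NEK6 siRNA 32.6% and 24.4%. The rest did not move the same way in both lines, so the 7 are not a result about the members.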

How the results depend on the processing

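The line difference held its direction and its call for all 7 members tested in 84 of 84 values over 12 settings: other size factors, both other filters, DESeq2, limma, no replicate block and each library left out. These settings are not all separate checks, because leaving out either library of an siRNA gave nearly the same line difference. For IL1B it was 7.06 without the CFPAC NEK6 library and 7.05 without the KP3 NEK6 library. Genes called ranged from 6422 to 6529 with a library left out, against 8223 with all 6. On log2(FPKM + 1), IL18BP was 0.57 higher in CFPAC over all libraries and 0.49 in the control libraries alone. The siRNA counts of 0 became 369 for NEK7 siRNA against control, 288 for NEK6 siRNA against control and 475 for NEK7 against NEK6 siRNA with DESeq2. With a library left out they ranged from 0 to 1 for both NEK7 comparisons, the 1 being the clone-named gene AC012321, chosen after its value was seen, without the CFPAC NEK7 library. Genes past 1.5-fold within a line numbered 1375 for NEK7 and 1236 for NEK6 siRNA in the CFPAC line, against 1414 and 1354 for KP3. With a pseudocount of 0.1 they numbered 2732, 2560, 2822 and 2711 in the same order, and with scaled counts 2749, 2628, 2968 and 2844.

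Of 415 alternative member values, 29 changed sign, all in siRNA comparisons where the member was not called, and the cause was not tested. For NEK7 siRNA against control, IL1B (log2 fold change 0.54) became -0.021 with limma and -0.31 with no replicate block. With a library left out it ran from -0.32 to 1.93, and IL18BP from -0.20 to 0.0096. IL1A kept its sign and ran from -6.55 to -0.37. For NEK6 siRNA against control, IL1A became -2.86 with DESeq2 and IL1RN -0.086 with no replicate block. With a library left out, IL1A ran from -5.55 to 0.62, IL1B from -0.44 to 1.42 and IL1RN from -0.20 to 1.19. For NEK7 against NEK6 siRNA, IL1RN became 0.0028 with no filter, 0.15 with limma and 0.51 with no replicate block. IL1B became -0.26 with limma and -0.77 with no replicate block, where IL18 became 0.0082 and IL1R1 -0.013. With a library left out, IL1A ran from -5.18 to 4.56, IL1B from -0.80 to 1.45, IL1RN from -0.70 to 0.70, IL18 from -0.19 to 0.11 and IL1R1 from -0.12 to 0.38. The block was the other factor, line or siRNA.

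With single libraries the fit has 2 residual degrees of freedom and treats the lines as replicates of an siRNA effect. Depth does not limit the abundant members, but IL1A in KP3 (8 counts in all), IL33 and IL1R2 lie near the floor of 3 counts a library.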
